A study of Mus musculus with 6 samples.

Results

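The BMP, GDF, activin and TGF-beta ligands considered are Bmp2, Bmp4, Bmp5, Bmp7, Gdf11, Tgfb2, Tgfb3, Inhba and Inhbb, with the follistatin gene Fst, and all 10 genes were found by symbol among the 24389 Ensembl gene identifiers measured. They were taken by name, with no threshold on their values. RNA from the dorsal pancreas of E13.5 mouse embryos was sequenced in 3 libraries from knockouts of Bicc1 (KO) and in 3 from wild-type embryos (WT), all on a mixed background of C57BL/6 and ICR. Bicc1 codes for the RNA-binding protein Bicaudal C1, and the study compared pancreatic mRNA with and without it. The labels give neither the knockout allele, nor the sex, nor whether a library holds 1 embryo or a pool, so the p-values reflect only the spread among these libraries, part of which may be technical. The values are the authors' deposited expression values, which look like a read density, and neither their unit nor the depth of sequencing is known. Whether 2 genes share a scale is not known, so levels are compared within a gene. The exceptions are a common filter at an average of 1 and the sums of cell type markers. Markers with large values weigh most in these sums, such as Cpa1 for epithelium, Gcg for endocrine cells, Vim for mesenchyme and Wt1 for mesothelium.

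Members of the transforming growth factor beta (TGF-beta) superfamily are secreted dimers that signal between the epithelium and the mesenchyme of developing organs. Bone morphogenetic proteins (BMPs) bind type I and type II receptor kinases and activate Smad1, Smad5 and Smad9, whereas TGF-betas, activins and Gdf11 act mainly through Smad2 and Smad3. Follistatin binds activins, and some BMPs and GDFs, and keeps them from their receptors. In the pancreatic bud these signals are known for roles in the induction of the bud from the gut endoderm, in branching, and in the balance between endocrine and exocrine fates, and Gdf11 is known to restrain endocrine progenitors in mice.

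In every library the deposited values summed to between 674295 and 716255. Bicc1 had a value of 3.96, 4.91 and 4.48 in KO 1, KO 2 and KO 3, against 19.7, 19.5 and 18.2 in WT 1, WT 2 and WT 3. Of 13911 genes averaging at least 1, 2 passed an adjusted p of 0.05, both lower in KO (limma with Benjamini-Hochberg adjustment), which is 0.0144% of the genes tested. These were Bicc1 and 4930533K18Rik, an uncharacterised gene that overlaps Bicc1 on the other strand and was singled out after its values were seen. In the reference annotation 4.69% of the exonic bases of Bicc1 lie in exons of 4930533K18Rik. Without strand, reads from these bases cannot be told apart, so the 2 may not be separate results. The part of shared reads in the values of 4930533K18Rik was not tested. The largest contrast between libraries, with 57.3% of the variance of log2 values, set KO 1, KO 2 and WT 3 apart from WT 1, WT 2 and KO 3. It ran along with GC content: across genes, which are not independent replicates, Spearman's rho of a gene's deviation in a library with the GC content of its longest transcript was 0.50 for KO 1, 0.61 for KO 2, -0.19 for KO 3, -0.56 for WT 1, -0.66 for WT 2 and 0.40 for WT 3. Markers of pancreatic epithelium were present in all libraries, with Cdh1, the epithelial cadherin, at 87.6 to 130.0 in KO and 112 to 119 in WT.

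None of the 10 genes was shown to change in KO. Of these, 6 (Bmp4, Bmp5, Bmp7, Gdf11, Tgfb2 and Tgfb3) averaged at least 1 over the 6 libraries and were tested, and 4 (Bmp2, Inhba, Inhbb and Fst) lay below it and were not. In limma 0 of the 6 passed an adjusted p of 0.05, and 1, Tgfb3, had an unadjusted p under 0.05, which 10.3% of all genes tested had. Every KO library exceeded every WT library in 1 of the 6, again Tgfb3, as in 7.67% of all genes tested, and every KO library was below every WT library in 0 of the 6, as in 8.77% of all genes tested (16.4% in either direction). The log2 mean was higher in KO in 5 of the 6 and in 53.5% of all genes tested. The median log2 change of the 6 was 0.13, where that of all genes tested was 0.014. For a single gene, an exact permutation test of 3 against 3 libraries cannot give a two-sided p below 0.1, so only the fit across all genes was used.

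**Figure D1:**
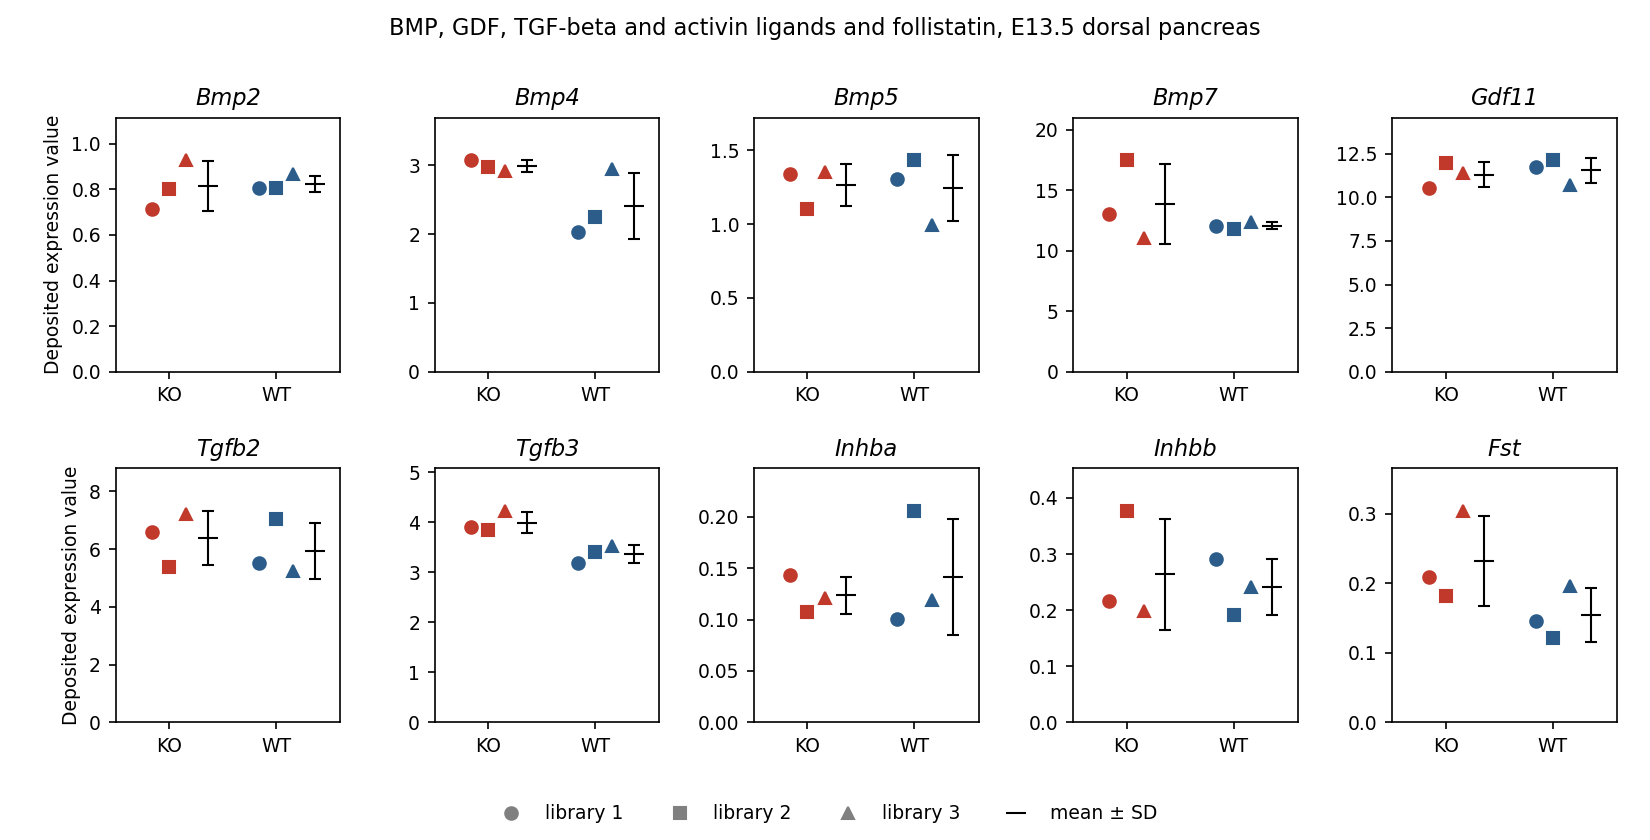
Deposited expression value (vertical axis, from 0, with its own scale for each gene) of the 10 genes in the KO libraries (red, left) and the WT libraries (blue, right); marker shapes give the library number, and black bars the mean ± SD of 3 libraries. KO and WT values overlap in 9 genes, and in Tgfb3 the lowest KO value, 3.84, lies above the highest WT value, 3.52.

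Among the BMP ligands, Bmp4, which acts from gut and pancreatic mesenchyme, had a value of 3.08, 2.97 and 2.91 in KO 1, KO 2 and KO 3, against 2.03, 2.25 and 2.94 in WT 1, WT 2 and WT 3. WT 1 and WT 2 lay below all KO libraries, while WT 3 lay within them, so the groups overlapped. The KO mean of 2.99 ± 0.0827 was 124% of the WT mean of 2.40 ± 0.478 (mean ± SD, n = 3 each). The log2 change was 0.24 (SE 0.109, 95% interval -0.017 to 0.49), with an adjusted p of 0.47 in limma. It was 0.35 without WT 3 (adjusted p 0.14) and 0.16 without WT 1, and neither passed the threshold.

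Bmp7, known as an epithelial ligand in several branching organs, had a value of 13.05, 17.5 and 11.05 in KO 1, KO 2 and KO 3, against 12.1, 11.8 and 12.4 in WT 1, WT 2 and WT 3. The highest and the lowest value of Bmp7 were both in KO libraries, and the WT libraries lay close together between them. KO averaged 13.9 ± 3.31 and WT 12.1 ± 0.293 (mean ± SD, n = 3 each). The log2 change of Bmp7 was 0.16 (SE 0.147, 95% interval -0.18 to 0.51), with limma's adjusted p at 0.62, and it was -0.0050 without KO 2 and 0.021 after a correction for GC content. The summed value of 10 epithelial markers was also highest in KO 2, at 810, and lowest in KO 3, at 549. It was 691 in KO 1 and 707, 603 and 729 in the WT libraries, so the marker sums of KO and WT overlapped. Of the 10 markers, 0 were at the floor and 4 had a higher log2 mean in KO, against 53.5% of all genes tested. Their part in the values of Bmp7 was not tested.

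Bmp5, a ligand of the same subgroup as Bmp7, had a value of 1.34, 1.10 and 1.35 in KO 1, KO 2 and KO 3, against 1.31, 1.43 and 0.997 in WT 1, WT 2 and WT 3. KO 2 and WT 3 were the lowest libraries, and the groups overlapped almost fully. Its log2 change was 0.015 (SE 0.102, 95% interval -0.22 to 0.25), and limma gave an adjusted p of 0.95. In the reference annotation, of build GRCm38, 46.7% of the exonic bases of Bmp5 also lie in exons of Gm26903 on the opposite strand, and with a kit that ignores strand the reads of both genes cannot be told apart. Bmp2, the close relative of Bmp4, was below the filter, with a value of 0.713, 0.802 and 0.929 in KO 1, KO 2 and KO 3, against 0.806, 0.805 and 0.866 in WT 1, WT 2 and WT 3. The KO libraries held both the lowest and the highest value of Bmp2, and its means were 0.815 ± 0.108 in KO and 0.825 ± 0.0349 in WT (mean ± SD, n = 3 each).

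Gdf11, the ligand known to limit the number of endocrine progenitors in the mouse pancreas, varied least of the 10 genes over the 6 libraries. Its value was 10.5, 11.997 and 11.4 in KO 1, KO 2 and KO 3, against 11.8, 12.1 and 10.7 in WT 1, WT 2 and WT 3. The highest library was 1.15 times the lowest, and KO and WT values interleaved. The KO mean of 11.3 ± 0.735 was 97.9% of the WT mean of 11.5 ± 0.736 (mean ± SD, n = 3 each). The log2 change of Gdf11 was -0.028 (SE 0.081, 95% interval -0.22 to 0.16), and limma gave an adjusted p of 0.89.

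The TGF-beta ligands were Tgfb2 and Tgfb3, isoforms that are made with a latency peptide and stored in the matrix until activated. Tgfb3 had a value of 3.91, 3.84 and 4.23 in KO 1, KO 2 and KO 3, against 3.18, 3.41 and 3.52 in WT 1, WT 2 and WT 3. Every KO library lay above every WT library, with the lowest KO value at 3.84, in KO 2, and the highest WT value at 3.52, in WT 3. The KO mean of 3.99 ± 0.208 was 119% of the WT mean of 3.37 ± 0.174 (mean ± SD, n = 3 each). The log2 change was 0.19 (SE 0.077, 95% interval 0.014 to 0.37), with an unadjusted p of 0.038 and an adjusted p of 0.47 in limma, so Tgfb3 did not pass. After GC correction its log2 change was 0.10, with an adjusted p of 0.70. In the reference annotation 12.4% of the exonic bases of Tgfb3 lie in exons of Gm37804 or Gm48008 on the opposite strand, and without strand such reads cannot be told apart.

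The summed values of endothelial and of leukocyte markers were apart in the same way as Tgfb3. The 7 endothelial markers summed to 93.9, 98.1 and 116 in KO 1, KO 2 and KO 3, against 80.7, 82.7 and 85.2 in WT 1, WT 2 and WT 3. Of these 7, 6 had a higher log2 mean in KO, 4 with an unadjusted p under 0.05 and 0 with an adjusted p under 0.05 in limma. Of all genes tested, 53.5% had a higher log2 mean in KO, and 5.89% were higher at an unadjusted p under 0.05. The 5 leukocyte markers summed to 18.4 to 21.5 in KO and 14.3 to 18.1 in WT, and 4 of the 4 tested had a higher log2 mean in KO, 2 of them with an unadjusted p under 0.05. None of the markers of either list was at the floor of 0.01, and the lowest on average was Ptprc at 0.749. Ptprc, the leukocyte marker that was not tested, averaged 0.749 in KO and 0.748 in WT. Their part in the values of Tgfb3 was not tested. In RNA from whole tissue, more cells of a type and more RNA per cell cannot be told apart.

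Tgfb2 had a value of 6.59, 5.37 and 7.22 in KO 1, KO 2 and KO 3, against 5.51, 7.03 and 5.23 in WT 1, WT 2 and WT 3. KO 3, WT 2 and KO 1 were the high libraries, so the order did not follow genotype. Its means were 6.39 ± 0.941 in KO and 5.92 ± 0.967 in WT (mean ± SD, n = 3 each). The log2 change of Tgfb2 was 0.095 (SE 0.132, 95% interval -0.21 to 0.40), and limma gave an adjusted p of 0.75. With 1 library left out the log2 change of Tgfb2 ran from 0.015 (without KO 3) to 0.21 (without WT 2). KO 1, KO 3 and WT 2 held the 3 highest values of both Tgfb2 and Bmp5.

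The activin subunits and follistatin had values of 0.377 or less in all 6 libraries. Inhba, which encodes the subunit of activin A, had a value of 0.143, 0.107 and 0.121 in KO 1, KO 2 and KO 3, against 0.1002, 0.206 and 0.119 in WT 1, WT 2 and WT 3. WT 2 was the highest library, at 155% of the mean over the 6, WT 1 was the lowest, and WT 3 lay among the KO libraries. Inhbb, which encodes the subunit of activin B, had a value of 0.217, 0.377 and 0.198 in KO 1, KO 2 and KO 3, against 0.291, 0.192 and 0.241 in WT 1, WT 2 and WT 3. Here KO 2 was highest, at 149% of the mean, and the remaining KO libraries lay within the WT range.

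Fst had a value of 0.208, 0.182 and 0.304 in KO 1, KO 2 and KO 3, against 0.146, 0.121 and 0.196 in WT 1, WT 2 and WT 3. KO 1 and KO 3 lay above all WT libraries, while KO 2 lay below WT 3. The KO mean of 0.231 ± 0.0644 was 150% of the WT mean of 0.154 ± 0.0383 (mean ± SD, n = 3 each), the largest ratio of KO to WT among the 10 genes. Its SD was 27.9% of its mean in KO, and a limma fit that kept all low genes gave Fst an unadjusted p of 0.080 and an adjusted p of 0.55. Under the same fit Bmp2, Inhba and Inhbb had adjusted p of 0.96, 0.85 and 0.90.

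**Figure D2:**
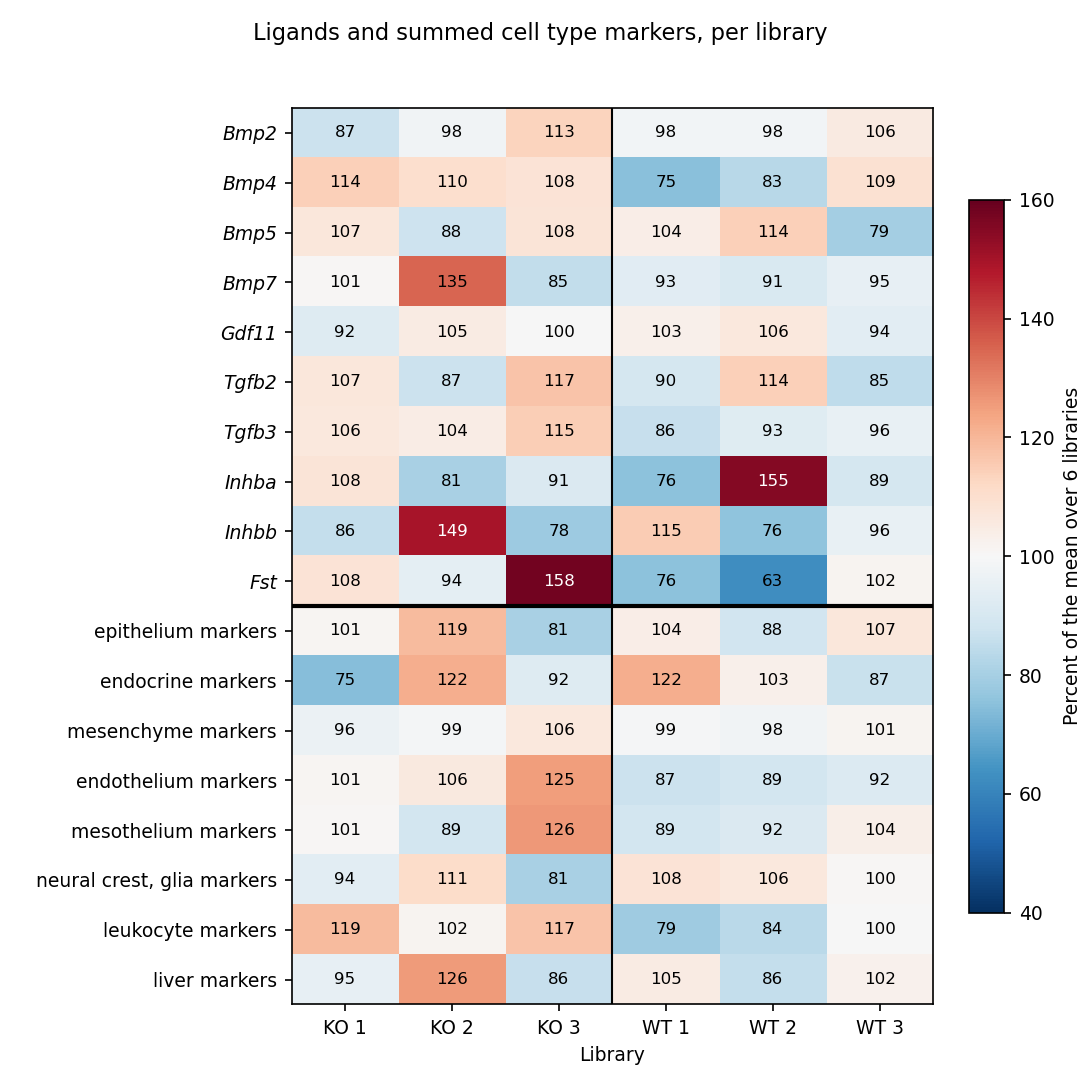
Value of each of the 10 genes (upper rows) and summed value of each marker list (lower rows) in each library (columns, KO left of WT), as a percent of the row's mean over the 6 libraries; red is above and blue below 100. Endothelium and leukocyte marker sums are higher in all KO libraries, as is Tgfb3, and Bmp7 and the epithelium markers are highest in KO 2 and lowest in KO 3.

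The 10 genes did not move as a group across libraries. The highest value was in KO 3 for 4 of them (Bmp2, Tgfb2, Tgfb3 and Fst), in WT 2 for 3 (Bmp5, Gdf11 and Inhba), in KO 2 for 2 (Bmp7 and Inhbb) and in KO 1 for Bmp4. The summed endothelial, mesothelial and mesenchymal markers were highest in KO 3 too, at 116, 51.9 and 670, against 98.1 or less, 42.7 or less and 640 or less in the other 5 libraries. The mesothelial sum was high in KO 3 through Wt1, at 25.1 there and 15.4 or less elsewhere. Of its other markers, Upk1b was also highest in KO 3, and Upk3b, Lrrn4, Krt19 and Msln were not. The part of the marker sums in the values of the 10 genes was not tested. GC content of the longest transcript ran from 40.5% in Bmp5 and 41.4% in Inhba, through 52.5% in Bmp4 and 53.0% in Tgfb3, to 55.3% in Bmp7 and 60.9% in Inhbb. After GC correction the median log2 change of the 6 tested genes was 0.11, with 5 still higher in KO. In that fit 0 of the 6 had an unadjusted p under 0.05, where 8.26% of all genes did, so this 0 says little.

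**Figure D3:**
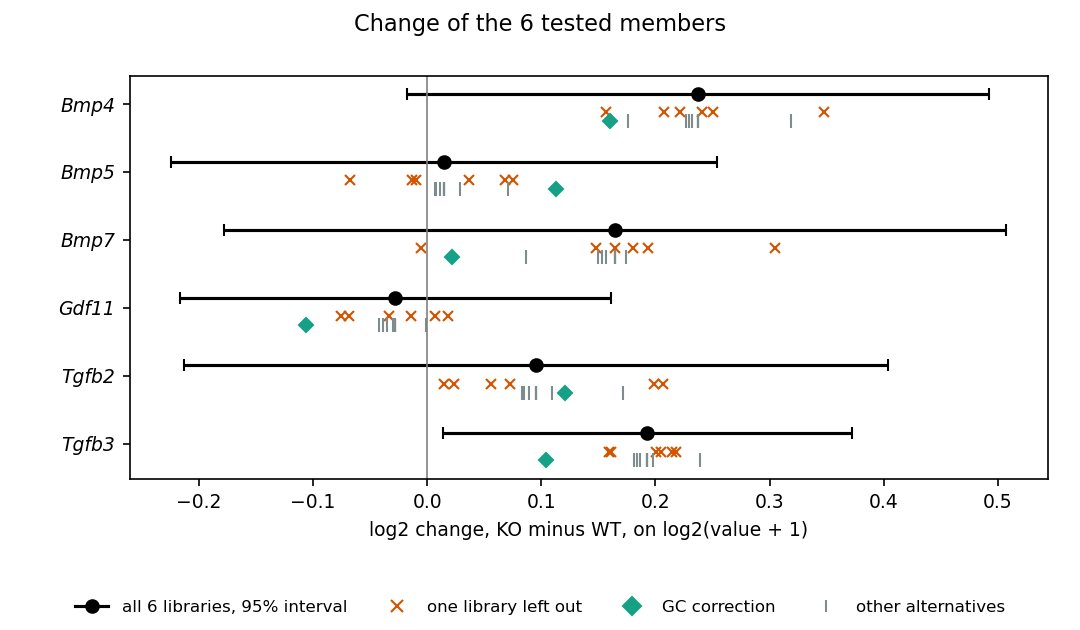
Log2 change, KO minus WT, on the log2(value + 1) scale (horizontal axis) of the 6 tested genes: black points with 95% intervals are from all 6 libraries, orange crosses from fits without 1 library, green diamonds after GC correction and grey ticks from the other alternatives. The interval of Tgfb3 alone lies above 0 before adjustment, from 0.014 to 0.37, and the sign of Bmp5, Bmp7 and Gdf11 depends on single libraries.

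The rest of the pathway was read from 7 lists that hold 112 genes, of which 105 had a row and 68 were tested; 7 genes, Bmp10, Gdf1, Gdf7, Gdf15, Inhbe, Cripto and Tll2, were not analysed here. In limma 0 of the 68 passed an adjusted p of 0.05. An unadjusted p under 0.05 was reached by 11 of the 68, 9 higher and 2 lower in KO, against 5.89% of all genes tested in the higher and 4.36% in the lower direction. The median log2 change of the 68 was 0.088, where that of all genes tested was 0.014. After GC correction 6 of the 68 had an unadjusted p under 0.05, 3 of them higher in KO, where 8.26% of all genes did, and the median was -0.0050.

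Among other ligands 4 of 19 with a row were tested, 3 with a higher and 1 with a lower log2 mean in KO, and 0 had an unadjusted p under 0.05. Of all genes tested, 53.5% had a higher log2 mean in KO and 10.3% an unadjusted p under 0.05. Gdf10, also called Bmp3b, averaged 1.67 ± 0.437 in KO and 1.23 ± 0.347 in WT, and the BMP-type ligand Gdf6 averaged 8.47 ± 1.99 in KO and 9.59 ± 2.08 in WT (mean ± SD, n = 3 each). Both overlapped between groups, with unadjusted p of 0.13 for Gdf10 and 0.41 for Gdf6 in limma. The median log2 change of these 4 genes was 0.044. After GC correction it turned to -0.097, with 1 of the 4 at a higher log2 mean in KO.

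Extracellular antagonists held the gene with the lowest p of the pathway, Cer1, which encodes Cerberus, a secreted inhibitor that binds BMPs and Nodal. Its value was 0.904, 1.33 and 0.905 in KO 1, KO 2 and KO 3, against 2.28, 2.08 and 2.23 in WT 1, WT 2 and WT 3. Every KO library lay well below every WT library, and the KO mean of 1.05 ± 0.244 was 47.6% of the WT mean of 2.20 ± 0.103 (mean ± SD, n = 3 each). Cer1 was named for its low p, so this separation is not further evidence. The log2 change of Cer1 was -0.65 (SE 0.102), with an unadjusted p of 0.00028 and an adjusted p of 0.47 in limma, so it did not pass. Over the alternatives its log2 change ran from -1.02, with a pseudocount of 0.1, to -0.60, and its adjusted p was lowest without KO 2, at 0.084. Neurog3, the factor that commits endocrine progenitors, also lay lower in all KO libraries, at 34.0, 50.9 and 35.1 in KO 1, KO 2 and KO 3, against 66.4, 55.4 and 58.3 in WT 1, WT 2 and WT 3. Its adjusted p in limma was 0.47, and 8.77% of all genes tested lay lower in every KO library than in any WT library. Neurog3 was the only 1 of the 8 endocrine markers with groups apart. Gcg, the endocrine marker with the highest mean, averaged 191 in both groups. The summed value of all 8 endocrine markers overlapped between groups, at 219 to 358 in KO and 254 to 357 in WT, with 0 markers at the floor. Of the 8, 2 had a higher log2 mean in KO, against 53.5% of all genes tested. An unadjusted p under 0.05 was reached by 2 of the 8, both lower, against 4.36% of all genes tested in that direction. Their part in the values of Cer1 was not tested.

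Of the 11 antagonists tested, 7 had a higher and 4 a lower log2 mean in KO, where 53.5% of all genes tested were higher. The median log2 change of the 11 was 0.055. An unadjusted p under 0.05 was reached by 2 higher and 1 lower in KO, against 5.89% and 4.36% of all genes tested. The 2 higher ones were Nbl1, a DAN-family BMP inhibitor, at 21.0 ± 1.31 in KO and 16.9 ± 1.98 in WT, and Kcp, a chordin-like protein known in mice to enhance BMP signalling, at 2.07 ± 0.244 in KO and 1.49 ± 0.227 in WT (mean ± SD, n = 3 each). Their log2 changes, 0.30 each, were 0.040 and 0.022 after GC correction, and their transcripts hold 61.1% and 62.3% GC. The change of Cer1, at 47.6% GC, was -0.64 after the same correction.

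Among genes of ligand processing and latency, 11 of 13 tested had a higher log2 mean in KO, against 53.5% of all genes tested. The median log2 change of the 13 was 0.12. An unadjusted p under 0.05 was reached by 3, all higher, against 5.89% of all genes tested in that direction. Ltbp4, a latent TGF-beta binding protein of the matrix, had a value of 4.85, 5.61 and 3.96 in KO 1, KO 2 and KO 3, against 1.70, 1.86 and 3.74 in WT 1, WT 2 and WT 3. Emilin1, an elastic fibre glycoprotein that holds back processing of the TGF-beta precursor, had a value of 20.0, 21.9 and 15.9 in KO 1, KO 2 and KO 3, against 6.98, 7.81 and 16.4 in WT 1, WT 2 and WT 3. In both, WT 1 and WT 2 were far below the other 4 libraries, and WT 3 lay close to KO 3. The log2 change of Ltbp4 was 0.80 (SE 0.220) and that of Emilin1 0.91 (SE 0.283), and limma gave both an adjusted p of 0.47. After GC correction they were 0.52 and 0.65, and their transcripts hold 62.2% and 61.1% GC. Bmp1, the protease that trims procollagens and the BMP antagonist chordin, averaged 9.97 ± 0.826 in KO and 8.07 ± 0.696 in WT (mean ± SD, n = 3 each), and its log2 change of 0.28 was 0.098 after GC correction. After that correction the median of the 13 genes was 0.020, and 7 of the 13 had a higher log2 mean in KO.

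Among the receptors and co-receptors, 8 of 13 tested had a higher and 5 a lower log2 mean in KO, where 53.5% of all genes tested were higher. The median log2 change of the 13 was 0.023. An unadjusted p under 0.05 was reached by 2, both higher, against 5.89% of all genes tested in that direction. These were Acvrl1, the type I receptor Alk1 of endothelial cells, and Eng, its co-receptor endoglin. Acvrl1 averaged 4.19 ± 0.337 in KO and 3.38 ± 0.223 in WT, and Eng averaged 17.8 ± 2.51 in KO and 13.8 ± 2.20 in WT (mean ± SD, n = 3 each). Every KO library exceeded every WT library in both, as in 7.67% of all genes tested. In Eng the lowest KO value, 16.3 in KO 1, was close to the highest WT value, 16.2 in WT 3. Both genes were named for their low p, so this separation is not further evidence. The endothelial marker sums given beside Tgfb3 were apart in the same direction, and their part was not tested. Limma's adjusted p was 0.47 for each, and the log2 changes of 0.24 and 0.34 were 0.069 and 0.15 after GC correction.

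Downstream, 6 of 9 tested Smad and Smurf genes had a higher log2 mean in KO, against 53.5% of all genes tested. The median log2 change of the 9 was 0.049. Smurf1, a ubiquitin ligase that marks Smads and receptors for degradation, averaged 10.8 ± 0.757 in KO and 8.63 ± 0.736 in WT (mean ± SD, n = 3 each). It was the only one of the 9 with an unadjusted p under 0.05, at 0.00997 in limma, where 10.3% of all genes tested had one. Its log2 change of 0.30 was 0.15 after GC correction. After that correction 0 of the 9 had an unadjusted p under 0.05, where 8.26% of all genes did, so this 0 says little. In the same fit 4 of the 9 had a higher log2 mean in KO, and their median was -0.0017.

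BMP target genes had 5 of 10 tested with a higher and 5 with a lower log2 mean in KO, a median log2 change of 0.059, and 0 with an unadjusted p under 0.05 in limma. The shares of all genes tested were 53.5% with a higher log2 mean and 10.3% at such a p. Id4, an inhibitor of bHLH factors, averaged 4.71 ± 0.692 in KO and 5.82 ± 0.595 in WT, and the inhibitory Smad gene Smad7 averaged 3.71 ± 0.490 in KO and 3.08 ± 0.112 in WT (mean ± SD, n = 3 each). Their unadjusted p were 0.054 and 0.069, and the log2 change of Smad7 of 0.20 was 0.023 after GC correction. The median of the 10 genes turned to -0.11 after that correction, with 2 of the 10 at a higher log2 mean in KO.

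TGF-beta and activin targets had 9 of 12 tested with a higher and 3 with a lower log2 mean in KO, where 53.5% of all genes tested were higher. The median log2 change of the 12 was 0.14. Fn1 (fibronectin) averaged 18.1 ± 0.489 in KO and 21.6 ± 1.54 in WT (mean ± SD, n = 3 each). Every KO library lay below every WT library, as in 8.77% of all genes tested. Fn1 was named for its low p, so this separation is not further evidence. Limma gave Fn1 an unadjusted p of 0.013 and an adjusted p of 0.47. After GC correction 8 of the 12 had a higher log2 mean in KO, at a median of 0.11. In that fit 2 of the 12 had an unadjusted p under 0.05 in limma, both lower in KO. Of all genes, 8.26% had such a p there in either direction.

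**Figure D4:**
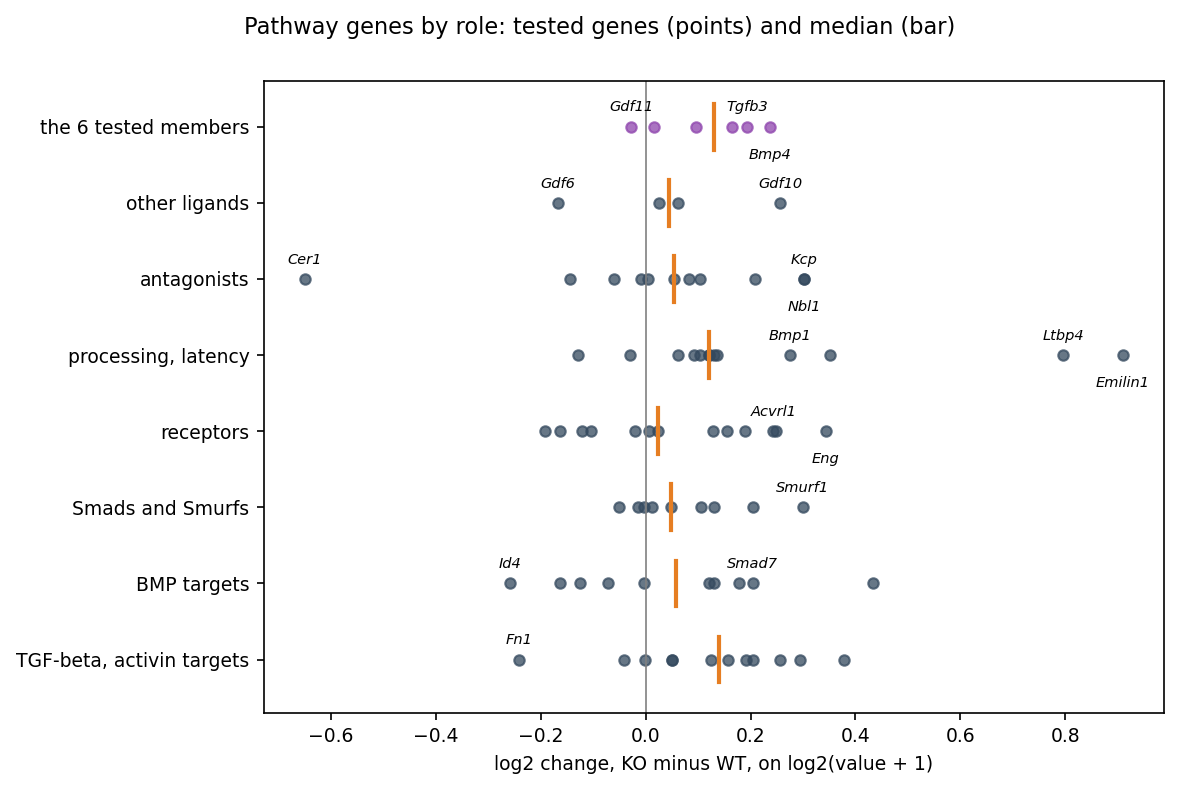
Log2 change, KO minus WT, on the log2(value + 1) scale (horizontal axis) of the 6 tested ligands and of the tested genes of each pathway list (rows); points are genes and orange bars the median of each row. Medians lie between 0.023 for receptors and 0.14 for TGF-beta and activin targets, and Cer1, at -0.65, and Emilin1, at 0.91, are the lowest and highest points.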

How the data were processed

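Per the labels' protocols, RNA from a column kit was turned into TruSeq RNA v2 libraries, which carry no strand information. The submitters' processing notes name CASAVA 1.82, Bowtie 0.12.7 and build mm9. The deposited files hold a signal per gene with a floor of 0.01. Its unit, annotation, counting and normalization were not stated there, so the depth is unknown and counting intervals cannot be given. A GRCm38 annotation gave symbols for 22624 identifiers (92.8%) and was used only for names, GC content and exon overlap.

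Deposited values were not rescaled. Genes averaging at least 1 were tested on the log2(value + 1) scale, which understates the change of low genes, using limma 3.58.1 (R 4.3.3) with a mean-variance trend and genotype as the term. Its two-sided p-values were adjusted over 13911 genes (Benjamini-Hochberg). GC correction used a loess of span 0.3 in each library, for 13385 tested genes whose GC content was known. Scripts were tested on simulated data. The members, lists and tests were chosen with earlier results of these data known. The pathway genes named are, of each list, up to 4 with an unadjusted p under 0.05, or otherwise the 2 with the lowest p. A gene that this rule names is not reported here. All marker genes named, such as Cdh1, Neurog3 and Ptprc, were picked with their values in view. Replicate numbers are not taken as pairs, because the labels give no pairing. The correlation across genes of deviations from group means was -0.22, -0.40 and -0.64 for same-numbered libraries. For the other combinations of a KO and a WT library it ran from -0.25 to 0.57. Deviations within a group cancel out, so these correlations are tied to each other and cannot settle whether libraries were paired. Python 3.11.15 was used for tables and figures.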

Additional observations from a re-analysis of the deposited data

How the results depend on the processing

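Members were recomputed under 17 alternatives: 3 scalings, 2 filters, a pseudocount of 0.1, robust moderation, GC correction, the replicate block with and without it, a term for the first component's side, and each library left out. In all 17, 0 members passed an adjusted p of 0.05 in limma, and Bmp4, Tgfb2 and Tgfb3 kept a higher log2 mean in KO. The lowest adjusted p among the members was 0.14, for Bmp4 without WT 3, where 2 of the 6 members and 22.4% of all genes tested had an unadjusted p under 0.05. That count was 0 with totals or upper quartiles equal, with GC correction, with the block, and without KO 1, WT 1 or WT 2. In these fits 3.3% (without WT 1) to 10.6% (upper quartiles equal) of all genes tested had such a p, so 0 of 6 says little about the members. The sign turned for Bmp5 without KO 1 (-0.0097), KO 3 (-0.013) or WT 3 (-0.067), for Bmp7 without KO 2 (-0.0050), for Gdf11 without KO 1 (0.018) or WT 2 (0.0067), and for Gdf6 without KO 2 (0.021). The cause was not tested. With 1 library left out, log2 changes ran from 0.015 to 0.21 for Tgfb2, from -0.067 to 0.076 for Bmp5, from -0.0050 to 0.30 for Bmp7, from -0.076 to 0.018 for Gdf11 and from -0.27 to 0.021 for Gdf6. The count of all genes past the threshold, 2 in the main test, was 1 with no filter, 0 with the replicate block, 1 with GC correction and replicate block, and 1 to 7 with a library left out (7 without KO 2). With the replicate block the adjusted p of Bicc1 was 0.088. The shared numbers are not a pairing given by the labels, and 656 genes had an unadjusted p under 0.05 in that fit, against 1426 without the block. Low values limit Inhba, Inhbb and Fst, whose libraries differ by up to 2.51 times within 1 gene.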
